A study of Mus musculus with 8 samples.

Results

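The transcripts of the dystrophin-glycoprotein complex were examined through 9 genes, Utrn, Dmd, Dag1, Sgcb, Sgcd, Sgce, Sspn, Sntb1 and Sntb2, among 21899 protein-coding genes measured by RNA sequencing. Rows of the count table were matched to these symbols, and each symbol was found once. The set had been chosen by values of the same comparison that is described here, with its fold changes known. The values below are therefore a description of these genes and no test of them. The cells were mesenchymal stem cells of mouse femoral bone marrow, adherent stromal progenitors that can form bone, fat and cartilage cells. One group, EA, was kept for 48 h in 10 µM ellagic acid, a plant polyphenol. The control group was kept for 48 h in DMSO, the solvent. Each group had 4 libraries, numbered 1 to 4. The labels name no strain, age or sex, and do not say whether the 4 libraries came from separate animals or cultures, so the spread between them may be technical.

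The dystrophin-glycoprotein complex ties the actin cytoskeleton to the extracellular matrix across the cell membrane. Dystrophin, or its autosomal paralogue utrophin, binds actin at one end and beta-dystroglycan at the other, and alpha-dystroglycan binds laminins outside the cell through a sugar chain. Sarcoglycans and sarcospan stabilise the membrane part, whereas dystrobrevins and syntrophins are cytoplasmic adaptors that recruit signalling proteins. The complex is best known from striated muscle, where its loss causes muscular dystrophies. Cells outside muscle carry related forms built largely on utrophin.

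Total counts ranged from 14112519 to 17390200 reads per library. Stromal markers were abundant, with a summed level of 15880 to 18440 CPM (counts scaled to a fixed library total) in control and 17760 to 18580 CPM in EA over 12 genes, although Thy1 stayed under 1 CPM. Most of that sum was Col1a1 and Col1a2, while Eng, Nt5e and Lepr were at no more than 3.69, 7.36 and 1.98 CPM. With the test given below, 6 of 11 tested stromal markers were called higher and 2 lower. Over all tested genes, 33.1% were called higher and 34.2% lower. The stromal markers did not move together, with Pdgfra 4.59-fold and Pdgfrb 2.74-fold higher and Ly6a 2.82-fold and Vcam1 1.49-fold lower. The skeletal muscle regulators Myod1 and Myf5 had 0 reads in all 8 libraries, and the 12 muscle markers summed to 3.87 to 4.85 CPM in control and 6.90 to 11.0 CPM in EA. Of these, Acta1 was at 1.26 to 1.48 CPM in control and 3.51 to 7.65 CPM in EA. Des and Ttn were at no more than 2.05 and 1.78 CPM in any library. The 7 Schwann cell markers summed to 18.3 to 22.7 CPM in control and 21.9 to 24.99 CPM in EA, with Sox10 at 0 reads. Of 5 tested, 2 were called higher and none lower, beside the 33.1% and 34.2% of all tested genes. These were S100b at 3.70-fold and Mbp at 2.46-fold, at no more than 7.9 and 3.7 CPM in any library. The 8 smooth muscle and pericyte markers summed to 332 to 384 CPM in control and 1090 to 1109 CPM in EA, nearly all of it from Cspg4 and Smtn. All 3 tested were called, beside 67.2% of all tested genes. Cspg4 was 4.73-fold and Smtn 3.06-fold higher, whereas Notch3 was 1.81-fold lower. Kcnj8 had 0 reads, and Myh11 was at no more than 0.361 CPM. The 8 haematopoietic markers summed to 35.2 to 45.0 and 44.4 to 49.2 CPM, mostly Lyz2, and the 5 endothelial markers to no more than 2.27 CPM. The part of the stromal and the smooth muscle and pericyte markers in the results below was not tested, and in these bulk samples fewer cells of a type and less RNA per cell cannot be told apart.

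In the EA libraries, transcripts of dystroglycan, sarcospan and utrophin were higher, and those of both beta-syntrophins and of delta-sarcoglycan were lower. Dag1 was 1.74-fold higher, Sspn 1.68-fold and Utrn 1.67-fold, with smaller differences for Sgce at 1.44-fold and Sgcb at 1.27-fold. The differences for Sgce and Sgcb depended on the scaling of libraries or on the fit, as given below. Sntb1 was 2.06-fold lower, Sgcd 1.60-fold and Sntb2 1.37-fold. Dmd, the dystrophin gene that gives the complex its name, was close to absent in both groups.

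Of the 9 genes, 8 had enough reads for the test across all genes, and all 8 were called, 5 higher and 3 lower (quasi-likelihood test of edgeR, with a threshold of 0.05 on p adjusted after Benjamini and Hochberg across 11777 genes). Over all tested genes 67.2% were called, 33.1% higher and 34.2% lower. The 4 EA values lay wholly above or wholly below the 4 control values for the 8 tested genes, as they did for 60.6% of all tested genes. The genes were picked with this contrast known, so nothing is read from these counts. Their median log2 fold change was 0.44, beside −0.02 for all tested genes. Calls stayed at 5 higher and 3 lower when any 1 of the 8 libraries was left out. Unless another scale is named, levels are CPM with TMM scaling, which adjusts for the make-up of each library, and fold changes are from the fitted model with an SE derived from its F statistic.

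**Figure D1:**
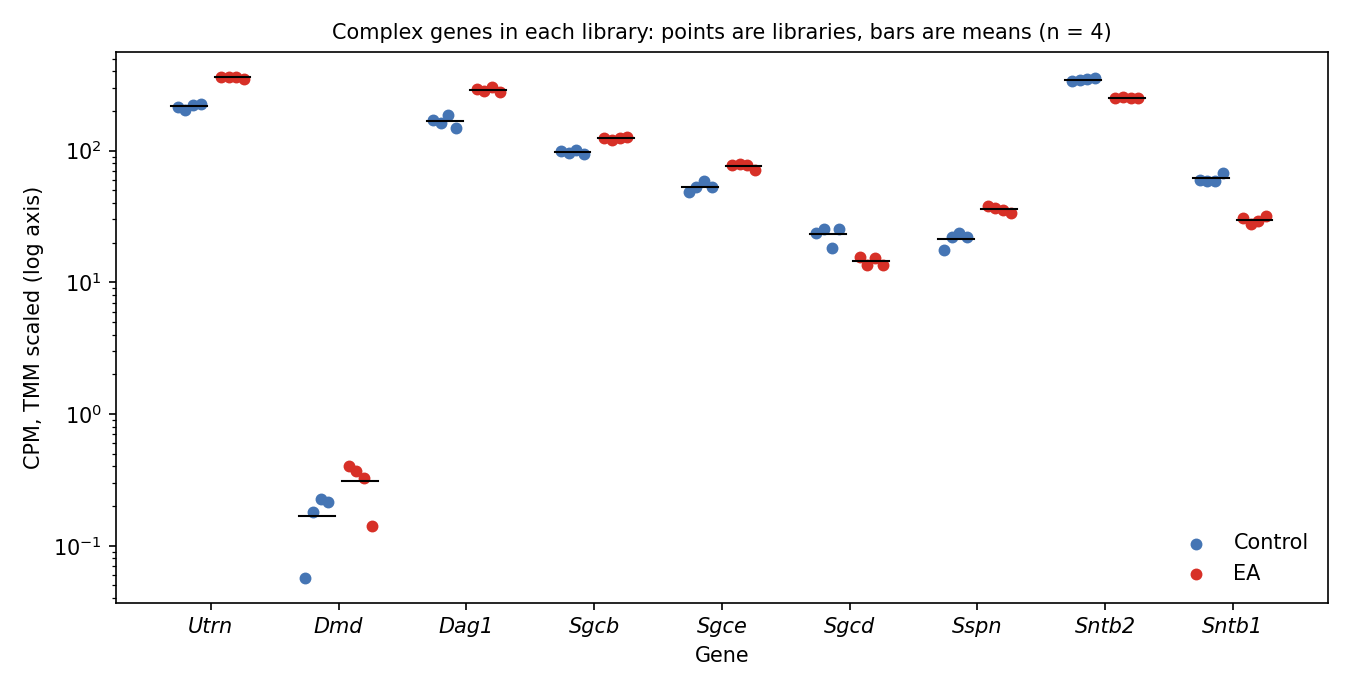
Level of each gene (x axis) in each library, as TMM-scaled CPM on a log axis, with control libraries in blue, EA libraries in red and black bars for group means (n = 4). Utrn lies near 217 CPM in control and 361 CPM in EA while Dmd stays under 1 CPM in all 8 libraries, and both beta-syntrophin genes lie lower in EA than in control.

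Utrn (chromosome 10, 12257932 to 12745109, minus strand, build GRCm39), which encodes the large actin-binding protein of the complex outside muscle, was at 214, 203, 223 and 226 CPM in control libraries 1 to 4. It was at 362, 365, 364 and 351 CPM in the EA libraries. Every EA library was above every control library, and the log2 fold change was 0.74 ± 0.05 (SE). Dmd (chromosome X, 81992476 to 84249747, plus strand), which encodes dystrophin, had 1, 3, 4 and 4 reads in control and 5, 5, 5 and 2 reads in EA. The groups overlapped, and no isoform can be separated in a count per gene. Summed over libraries, Dmd had 12 of 62228489 reads in control, or 0.193 CPM by library totals with an interval of 0.0996 to 0.337 (95%, exact Poisson, counting error only). It had 17 of 62921005 reads in EA, or 0.270 CPM with an interval of 0.157 to 0.433. A difference in Dmd was thus not detectable at this depth. As a share of summed Dmd and Utrn FPKM (counts scaled by gene length and library total), Dmd made up 0.0559 ± 0.0247% in control (SD, n = 4) and 0.0613 ± 0.0224% in EA (SD, n = 4). The deposited gene lengths join the exons of all isoforms. They exceeded the longest GENCODE M21 transcript 1.60-fold for Dmd and 1.38-fold for Utrn. The FPKM of both genes are thus lower than the same reads would give over the length of 1 isoform. The label of a dystrophin complex therefore holds for the partner genes, whereas the large cytoskeletal linker measured in these libraries was almost wholly Utrn.

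Stretches upstream of annotated starts are shown for the gene that was most abundant per length in EA, Dag1, and for the nearly silent gene, Dmd. Of the 9 windows matched, only the first of Dag1 and the first of Dmd lie outside every GENCODE M21 transcript. The second Dmd window is also printed, and it lies in an intron of longer Dmd transcripts, ahead of the start of a shorter form. A second Dag1 window, 74.8% G and C with 3 GC boxes, overlaps the first and an exon and is not printed. The windows of Sgcb, Sgcd, Sspn and Utrn, not printed either, overlap exons or introns of longer transcripts and need not be promoters. RefSeq windows were matched for 6 of the 9 genes, on build GRCm38.p6, and 250 bases before the start are printed 5′ to 3′ on the strand of the gene. Capitals mark GC boxes (GGGCGG on either strand) and, in the first Dmd window, a match to the CArG box. The 3 stretches are as follows.
Dag1, chr9:108263959-108264208, minus strand: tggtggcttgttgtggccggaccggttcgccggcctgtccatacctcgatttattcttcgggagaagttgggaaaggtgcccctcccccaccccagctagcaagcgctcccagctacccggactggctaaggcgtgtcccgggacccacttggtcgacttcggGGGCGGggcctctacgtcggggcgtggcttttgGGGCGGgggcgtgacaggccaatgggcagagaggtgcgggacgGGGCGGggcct
Dmd first window, chrX:82948620-82948869, plus strand: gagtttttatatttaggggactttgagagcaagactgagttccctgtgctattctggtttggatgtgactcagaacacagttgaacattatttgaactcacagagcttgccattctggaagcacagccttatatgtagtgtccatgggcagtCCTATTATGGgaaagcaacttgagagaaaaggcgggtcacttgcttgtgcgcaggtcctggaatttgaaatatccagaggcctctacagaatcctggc
Dmd second window, chrX:85048045-85048294, plus strand: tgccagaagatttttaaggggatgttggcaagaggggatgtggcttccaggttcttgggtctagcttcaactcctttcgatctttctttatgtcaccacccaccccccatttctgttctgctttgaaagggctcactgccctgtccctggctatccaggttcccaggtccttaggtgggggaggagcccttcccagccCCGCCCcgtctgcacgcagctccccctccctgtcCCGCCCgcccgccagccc
The Dag1 stretch was 67.6% G and C with 3 GC boxes, the first Dmd stretch 45.2% with none, and the second Dmd stretch 60.0% with 2. Over 32851 windows of this length the median was 52.4%, and 32.7% held a GC box. A CArG box was present in 1.47% of windows, and among the 9 windows it was found only in the first Dmd stretch. These matches are letters in a window and say nothing of whether a factor was bound.

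Dag1 (chromosome 9, 108081833 to 108141157, minus strand), which encodes both the laminin-binding and the membrane-spanning dystroglycan, was at 171, 163, 185 and 149 CPM in control and 294, 283, 305 and 277 CPM in EA. The groups did not overlap, and the log2 fold change was 0.80 ± 0.06. Dag1 and Utrn moved in near proportion. The ratio of Dag1 to Utrn FPKM, which does not depend on how libraries are scaled against each other, was 2.08 ± 0.208 in control libraries and 2.16 ± 0.0751 in EA libraries (SD over 4), with overlapping values. Sspn (chromosome 6, 145877367 to 145910949, plus strand), which encodes sarcospan, a membrane protein with several membrane-spanning segments, was at 17.5, 22.2, 23.5 and 22.1 CPM in control and 37.9, 36.9, 35.2 and 33.4 CPM in EA. All EA libraries were above all control libraries, with a log2 fold change of 0.75 ± 0.09. The ratio of Sspn to Dag1 FPKM was 0.164 ± 0.0250 in control and 0.157 ± 0.00911 in EA, so these values overlapped as well.

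The 3 sarcoglycan genes of the set divided. Sgcd (chromosome 11, 46787080 to 47879796, minus strand), encoding delta-sarcoglycan, was at 23.7, 25.4, 18.1 and 25.5 CPM in control and 15.5, 13.6, 15.3 and 13.4 CPM in EA. Every EA library was below every control library, with a log2 fold change of −0.68 ± 0.11. Sgcb (chromosome 5, 73790092 to 73805133, minus strand), encoding beta-sarcoglycan, was at 98.5, 96.1, 101 and 94.0 CPM in control and 125, 121, 124 and 126 CPM in EA, a log2 fold change of 0.35 ± 0.06. In the deposited FPKM, which are scaled by library totals, Sgcb was at 27.5, 26.9, 28.4 and 26.2 in control and 27.2, 26.3, 27.0 and 27.4 in EA. The groups overlapped there, so the higher call for Sgcb rested on the scaling. Sgce (chromosome 6, 4674350 to 4747207, minus strand), encoding epsilon-sarcoglycan, the form common outside striated muscle, was at 48.6, 53.0, 59.2 and 52.6 CPM in control and 77.4, 79.5, 78.3 and 71.4 CPM in EA. Its log2 fold change was 0.52 ± 0.07, and on log2(FPKM + 1) it was 0.14 and not past the threshold (limma). In the deposited FPKM, Sgce was at 5.18 to 6.38 in control and 5.91 to 6.61 in EA, so the groups overlapped there too. Within libraries, Sgcd took 8.83 ± 1.45% of the summed FPKM of Sgcb, Sgcd and Sgce in control and 4.42 ± 0.293% in EA, with no overlap. Sgcb held 75.4 ± 1.12% and 77.3 ± 1.05% of that sum, and Sgce 15.8 ± 1.11% and 18.3 ± 0.918%. The lower share of Sgcd in EA thus did not depend on how libraries were scaled, although a share also moves when the other genes of the sum do.

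Both beta-syntrophin genes, whose products are cytoplasmic adaptors, were lower in EA. Sntb1 (chromosome 15, 55499784 to 55770345, minus strand), encoding beta-1-syntrophin, was at 59.5, 59.0, 59.2 and 68.1 CPM in control and 30.7, 27.9, 29.1 and 31.7 CPM in EA. All EA values were below all control values, with a log2 fold change of −1.04 ± 0.07, the lowest of the 8 tested genes. Sntb2 (chromosome 8, 107662382 to 107746346, plus strand), encoding beta-2-syntrophin, was at 340, 341, 349 and 356 CPM in control and 253, 254, 252 and 251 CPM in EA. The groups did not overlap, and the log2 fold change was −0.46 ± 0.05. Within each library, Sntb1 made up 25.6 ± 1.03% of the summed FPKM of both beta-syntrophins in control libraries and 18.7 ± 0.926% in EA libraries, again without overlap. Relative to Utrn, whose product binds syntrophins, both were lower. Utrn was higher in EA and all these genes were chosen with the contrast known. The ratios thus combine differences already given and are no further support for them. The ratio of Sntb1 to Utrn FPKM was 0.912 ± 0.0488 in control libraries and 0.266 ± 0.0194 in EA libraries. That of Sntb2 to Utrn was 2.65 ± 0.0832 and 1.16 ± 0.0157.

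**Figure D2:**
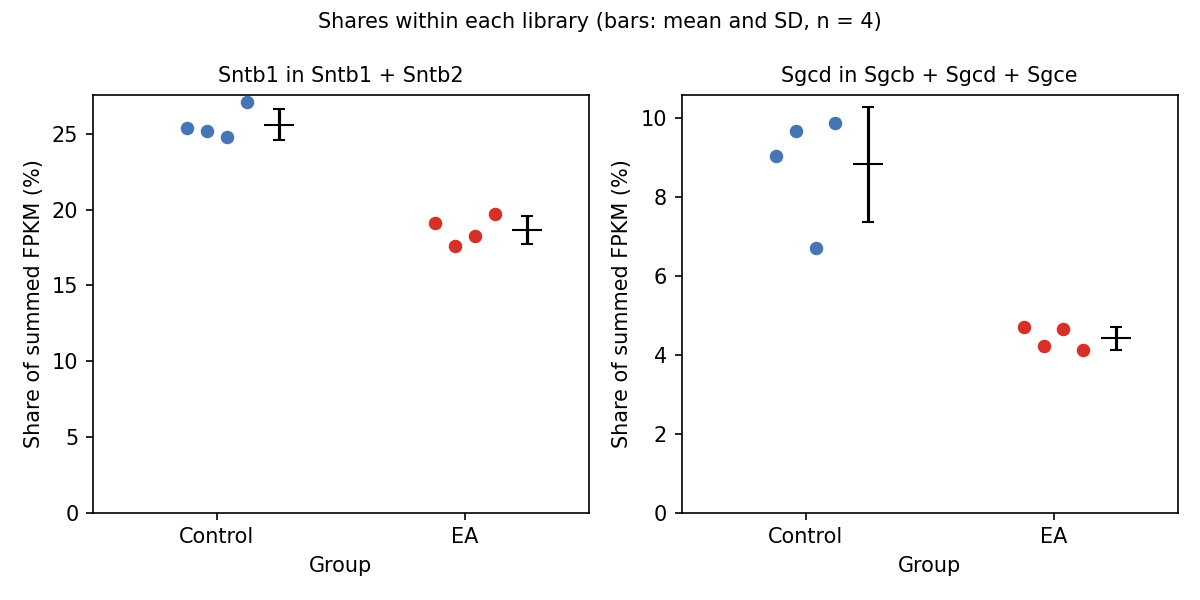
Share of Sntb1 in the summed FPKM of both beta-syntrophin genes (left) and of Sgcd in the summed FPKM of Sgcb, Sgcd and Sgce (right), in percent, with 1 point per library and bars for mean and SD (n = 4). The EA libraries lie at 17.6 to 19.7% on the left and 4.12 to 4.70% on the right, below all control libraries in both panels.

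Ordered by FPKM in control, the 9 genes ran Sntb2 at 38.0 ± 0.832, Dag1 at 29.8 ± 2.82, Sgcb at 27.2 ± 0.913, Utrn at 14.4 ± 0.678, Sntb1 at 13.1 ± 0.896, Sgce at 5.70 ± 0.499, Sspn at 4.84 ± 0.616, Sgcd at 3.18 ± 0.467 and Dmd at 0.00807 ± 0.00368. Neighbours whose libraries overlapped were Dag1 and Sgcb, Utrn and Sntb1, and Sgce and Sspn. In EA, Dag1 came first at 40.2 ± 1.82 FPKM, before Sgcb at 27.0 ± 0.453, Sntb2 at 21.5 ± 0.151 and Utrn at 18.6 ± 0.376. Sntb1 came after Sgce and Sspn in EA, at 4.94 ± 0.270 FPKM against 6.37 ± 0.316 and 6.33 ± 0.362, and only Sgce and Sspn overlapped as neighbours. The deposited lengths join all exons of a gene and exceeded the longest GENCODE M21 transcript 2.40-fold for Sgce and 1.85-fold for Sgcd. With the longest transcript as length, a choice added after seeing the data, Sgcd passed Sspn in control, with overlapping values, and Utrn passed Sntb2 in EA, and the other 7 ranks of each group were kept.

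How libraries were scaled set the size of each difference. The TMM factors split wholly by group, at 1.13 to 1.14 in control libraries and 0.878 to 0.885 in EA libraries. With library totals alone, the median over all genes moved from −0.02 to −0.38 on the log2 scale, and each gene of the complex shifted by a similar amount. On that scale Dag1 was at 0.43, Sspn at 0.38, Utrn at 0.37, Sgce at 0.16 and Sgcb at −0.01, with Sgcb not past the threshold. Sntb1 was at −1.41, Sgcd at −1.04 and Sntb2 at −0.82. The lower values of the 3 falling genes and the higher values of Dag1, Sspn and Utrn kept their direction and their calls under each of the scalings tried. With limma on log2(FPKM + 1), 3 genes were higher and 3 lower.

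**Figure D3:**
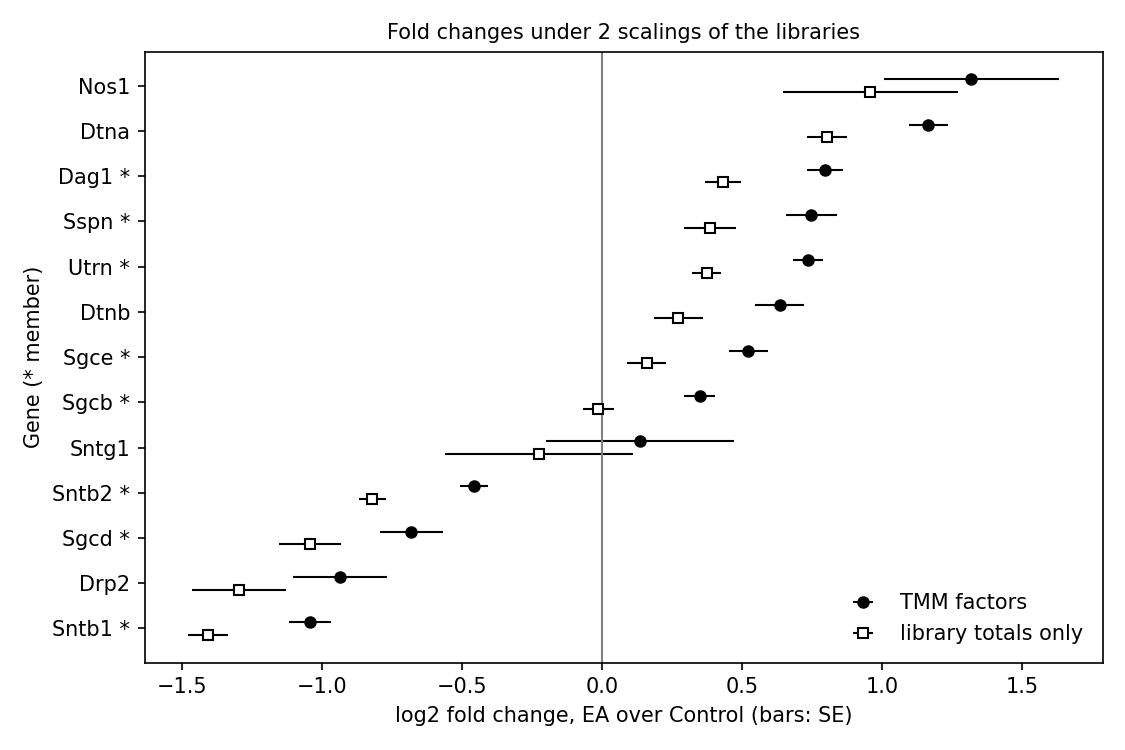
Log2 fold change of EA over control (x axis, with SE bars) for the 8 tested genes of the set, marked with asterisks, and 5 other tested genes of the complex, with TMM factors (filled circles) and with library totals only (open squares). The open squares lie to the left of the filled circles throughout, and Sgcb moves from 0.35 to −0.01 while Sntb1 lies at −1.04 and −1.41.

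Of 8 further subunits and close partners that were listed, 5 had enough reads to be tested. This list and those that follow were drawn up with earlier results of these data known. Their calls and p-values are therefore a description. Dtna, encoding alpha-dystrobrevin, a dystrophin-related adaptor that binds syntrophins, rose 2.24-fold from 49.1 ± 4.98 to 110 ± 3.96 CPM (edgeR adjusted p = 8.85e-12). Dtnb, its beta form, rose 1.55-fold from 20.2 ± 1.57 to 31.4 ± 2.21 CPM (edgeR adjusted p = 1.98e-06). Drp2, a short dystrophin relative found in Schwann cells, fell 1.91-fold, from 6.22 ± 0.924 to 3.25 ± 0.268 CPM (edgeR adjusted p = 5.53e-05). Nos1, the neuronal nitric oxide synthase that the complex recruits in muscle, rose 2.49-fold, but from only 0.925 ± 0.168 to 2.32 ± 0.837 CPM, with EA library 4 inside the control range (edgeR adjusted p = 0.000941). Sntg1, a gamma-syntrophin gene, had 1.13 ± 0.421 CPM in control libraries against 1.24 ± 0.361 in EA libraries and did not pass the threshold (edgeR adjusted p = 0.737). In all, 3 of these 5 rose and 1 fell, and their median difference was 0.63 on the log2 scale, beside 33.1% higher, 34.2% lower and a median of −0.02 over all tested genes. Sgca, encoding the alpha-sarcoglycan of striated muscle, had 25 reads in control and 21 in EA, Sntg2 had 1 read, and Sgcz had 0 reads, with exact Poisson upper limits (95%) of 0.0593 CPM in control and 0.0586 CPM in EA.

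Of 16 tested genes that build the laminin-binding sugar of alpha-dystroglycan or supply its precursors, 9 rose and 3 fell. The median difference was 0.21 on the log2 scale. Over all tested genes 67.2% were called, 33.1% higher and 34.2% lower. With library totals the list split into 4 higher and 6 lower, where the whole table had 1940 higher and 7196 lower. Gmppb, which supplies activated mannose, rose from 9.53 ± 0.722 to 21.5 ± 1.25 CPM, a log2 fold change of 1.17 ± 0.10, and Pomgnt1, a glycosyltransferase of this pathway, rose from 56.5 ± 2.16 to 92.4 ± 3.90 CPM. Dpm1, a subunit of the dolichol phosphate mannose synthase, rose from 8.004 ± 0.506 to 14.8 ± 1.87 CPM. Pomk, the kinase that phosphorylates the core sugar, fell from 24.7 ± 1.55 to 11.7 ± 0.904 CPM, and Pomt1, which adds the first mannose, from 20.4 ± 1.499 to 12.5 ± 1.83 CPM. Rxylt1, a xylosyltransferase, fell from 76.4 ± 3.97 to 61.1 ± 4.46 CPM.

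Among 12 tested laminins and other ligands or basement membrane partners of dystroglycan, 5 rose and 4 fell, with a median of 0.07, beside 33.1% higher and 34.2% lower over all tested genes. With library totals, which turned the whole table to 1940 higher and 7196 lower, the split became 2 higher and 7 lower, and without EA library 3 it was 3 higher and 4 lower. Lamb1 fell from 637 ± 38.8 to 406 ± 22.8 CPM, whereas Lamb2, the alternative beta chain, rose from 279 ± 19.6 to 471 ± 16.7 CPM. Lama4, the most abundant alpha chain measured, fell from 317 ± 10.4 to 226 ± 8.87 CPM and Lamc1 from 535 ± 40.7 to 442 ± 16.8 CPM. Lama2, the alpha chain of muscle laminin, reached only 0.428 ± 0.345 CPM in control and 0.997 ± 0.544 in EA and did not pass (edgeR adjusted p = 0.0789). Bgn, encoding the proteoglycan biglycan, rose from 1499 ± 55.6 to 2626 ± 41.5 CPM. Agrn, encoding agrin, a proteoglycan that binds alpha-dystroglycan, rose from 76.0 ± 4.69 to 95.7 ± 5.12 CPM, a log2 fold change of 0.33 that became −0.03 with library totals.

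Of 16 tested cytoskeletal and syntrophin-binding partners, 10 rose and 1 fell, with a median of 0.20. The calls in either direction were near the 67.2% of all tested genes, of which 33.1% were higher and 34.2% lower. With library totals the partners split into 7 higher and 6 lower, against 1940 and 7196 in the whole table. Synm, which encodes the intermediate filament protein synemin, rose from 21.8 ± 2.83 to 148 ± 8.86 CPM, a log2 fold change of 2.77 ± 0.08. Dysf, encoding the membrane repair protein dysferlin, rose from 73.3 ± 2.90 to 251 ± 15.4 CPM. Plekha2, encoding an adaptor that binds syntrophins, rose from 40.1 ± 2.60 to 113 ± 9.33 CPM. Ank2, encoding an ankyrin that helps place the complex at the membrane, fell from 175 ± 12.2 to 151 ± 10.6 CPM, and its groups overlapped. Cav3 and Aqp4, partners known from muscle and brain, had 0 reads.

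**Figure D4:**
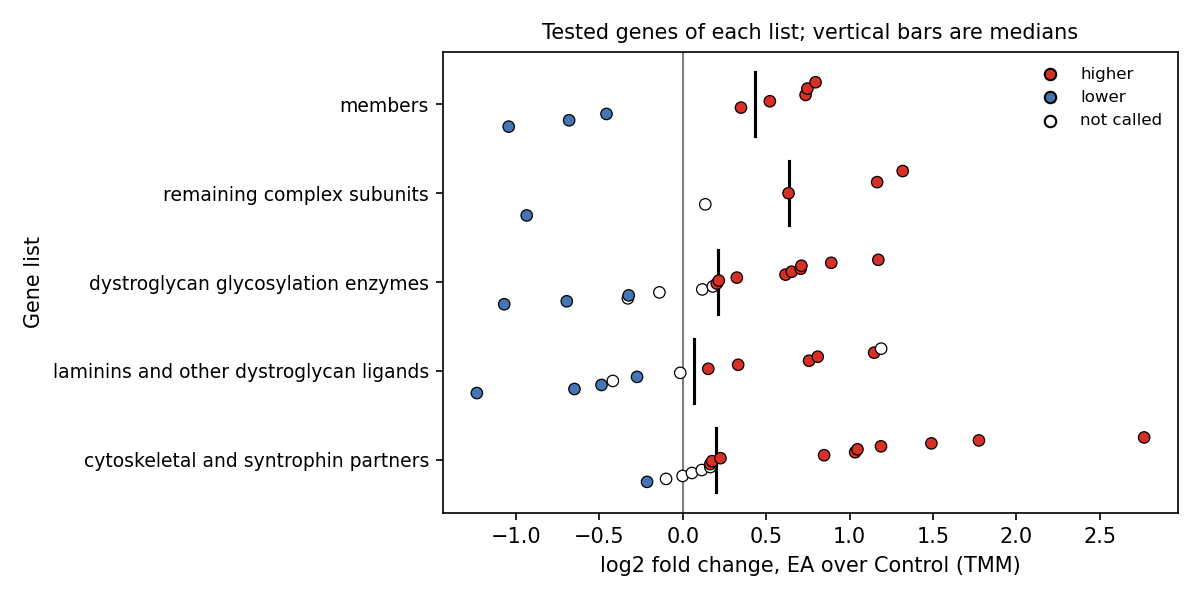
Log2 fold change of EA over control (x axis, TMM scaling) for each tested gene of 5 lists, coloured red where higher, blue where lower and white where not past the threshold, with vertical bars for list medians. The medians range from 0.07 for laminins and other ligands to 0.63 for the remaining subunits, and the rightmost point is Synm at 2.77.

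The tested genes outside all lists whose log2 CPM ran closest to Sntb1 over the 8 libraries were Zfyve9, Cntrl and Dtx4, with Pearson's r of 0.998, 0.998 and 0.997. Their log2 fold changes were −0.80, −1.05 and −0.60. With 2 groups of libraries that stand apart, such values mostly restate the group difference, and they are given as a description.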

How the data were processed

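Poly(A) RNA of 8 libraries was sequenced. The authors deposited read counts per gene and FPKM values. The submitters' processing notes name cutadapt 1.15, HISAT2 2.0.5 and build GRCm39. Which program counted reads, whether it used strand, and from which annotation, is not given in the sources used here. Recomputing 117047 deposited FPKM values from count, gene length and column total gave a largest relative deviation of 3.56e-14.

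Counts were fitted over all genes in R 4.3.3 with edgeR 4.0.16 (TMM factors, default count filter by group, robust quasi-likelihood F test without covariates), with p adjusted over 11777 genes. Alternatives used DESeq2 1.42.0, limma 3.58.1 on FPKM, other scalings and filters, the replicate number as a block, and omission of each library in turn. Figures were drawn with matplotlib 3.10.9. On simulated counts edgeR recovered 188 of 200 changed genes among 11777, with 11 false calls. The simulation held no overall shift between groups, whereas in the data 67.2% of genes were called. It therefore says nothing about the scaling of libraries or about calls at that share. Within groups, no pair of libraries agreed within sampling noise. Libraries of the same number did not vary together, so no pairing was used.

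The members and the lists were chosen with earlier results of these data known. Named genes were the members, the remaining subunits and up to 3 rising and 3 falling genes of smallest p per list, with markers of highest level or at 0, and the 3 unlisted genes best correlated with the member of largest difference. Lama2, Cav3 and Aqp4 were chosen after their values were seen. Some listed genes are not reported here and were left out of the lists, their counts and the figures. Reads of near-identical sequences cannot be separated in these counts.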

Additional observations from a re-analysis of the deposited data

Results flagged for a closer look

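In 3 of 58 groups of 4 libraries tested over the named genes, 1 library lay far from the other 3. Chance alone gives about 1 such group in 20. Sntb1 was at 68.1 CPM in control library 4 and at 59.0 to 59.5 CPM in the other control libraries. Without that library its log2 fold change was −0.99, against −1.04 with all libraries. Dpm1 was at 17.6 CPM in EA library 3 and at 13.7 to 14.05 CPM in the other EA libraries. Rxylt1 was at 54.5 CPM in EA library 3 and at 62.7 to 64.3 CPM in the others.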

How the results depend on the processing

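The scaling of libraries was the choice that moved most counts of calls. With library totals, limma on log2(FPKM + 1) and limma on log2(FPKM + 0.1), in that order, genes called over the whole table were 1940, 1924 and 1922 higher and 7196, 7170 and 7179 lower, against 3893 and 4027. The glycosylation enzymes had 4, 4 and 4 higher and 6, 7 and 7 lower, and the partners 6, 6 and 6 lower. Dystroglycan ligands had 2, 2 and 2 higher, against 5, and 7 lower with library totals and 7 with log2(FPKM + 0.1). Members higher were 3 and 3 under the FPKM fits. Sgcb was at −0.01, −0.01 and −0.01 on the log2 scale, Agrn at −0.03, −0.03 and −0.03, and Sntg1, which no setting called, at −0.23, −0.02 and −0.10. Sgce was at 0.14 and 0.16 and Nos1 at 0.11 with log2(FPKM + 1), not past the threshold. Upper-quartile factors gave 5 glycosylation enzymes lower, 3 partners lower, 3 ligands higher and Sntg1 at −0.02, and a threshold of 0.01, chosen after seeing the data, gave 3 ligands higher. The cause was not tested. Shares of raw counts, which do not divide by gene length, were 15.05% and 10.6% for Sntb1 among beta-syntrophins in control and EA, 56.0% and 57.65% for Sgcb, 13.35% and 6.72% for Sgcd and 30.7% and 35.6% for Sgce among sarcoglycans, and 0.0853% for Dmd in EA. Leaving out 1 library gave 3721 to 4012 genes higher and 3794 to 3957 lower, 5 and 3 members in each case, and 3 to 6 ligands higher, the 3 without EA library 3, while Sntg1 ranged from −0.07 to 0.36, with −0.06 without EA library 4. With a replicate block, 3834 genes were higher and 3960 lower, and 5 and 3 members. Libraries of the same number correlated at only −0.032 to 0.036 in their deviations, so the block rests on a shared number alone. Dmd, Sgca, Sgcz and Sntg2 had too few reads to be tested at this depth.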
